A study of Mus musculus with 12 samples.

Results

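MHC class I antigen presentation genes were examined as a set of 10 genes among the 28842 in the deposited expression table: 4 heavy chains (H2-K1, H2-D1, H2-T23 and H2-Q4), the light chain B2m, the peptide transporter genes Tap1 and Tap2, the loading factor Tapbp, the regulator Nlrc5 and the immunoproteasome subunit Psmb8. They were taken by gene name, and the names had been selected on the normalised read counts of these same 12 libraries, for their difference between the groups. Their differences between groups are therefore given as a description, with standard errors and without tests. All 10 were in the table, and 7 of the 10 had a mean level of at least 1 FPKM (a read count scaled to gene length and to the library total), the minimum for entering the test across genes, whereas Tap1, Nlrc5 and Psmb8 were below it.

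The study profiled prefrontal cortex of wild-type C57BL/6J male mice by RNA sequencing, with 6 libraries from a saline group and 6 from a cocaine group. The saline group was injected with saline, and the cocaine group with cocaine at 15 mg/kg, in adolescence, from postnatal day 28 to day 42. As adults, all mice of both groups had a pre-test (day 75), cocaine at 1 mg/kg with place preference training (days 76 and 77) and the final test (day 78). The assay, conditioned place preference, measures how much time an animal spends in a compartment that it has learned to associate with a drug. Tissue was frozen 30 to 60 minutes after the test, so both groups had been given cocaine in adulthood and no drug-free animals were included here. The labels do not say that each library came from its own mouse, so every p-value below measures the spread between these libraries, which may be in part technical.

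Depth was 16.7 to 19.9 M recovered reads per library. The labels also name a mesenchymal stem cell line, C3H 10T1/2, but the excitatory neuron markers summed to 69289 to 103784 normalised reads over the saline and 73895 to 97696 over the cocaine libraries, and all 8 of them reached the level for testing, so the tissue is called prefrontal cortex here. Across all genes, limma called 0 of 13016 at an adjusted p under 0.05, with 149 (1.14 percent) at an unadjusted p under 0.05. edgeR on the recovered reads called 0 of 16057 (253 unadjusted). DESeq2 called 3, where 28827 genes had a p-value (0.0104 percent, with 428 unadjusted) and fewer may have entered its adjustment, which drops genes of low mean count. The 3 were the activity-induced genes Nr4a1, Arc and Dusp1, all higher in cocaine and none of them a class I gene. In bulk tissue, fewer cells of a type and less RNA per cell cannot be told apart, and this holds for each difference below.

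MHC class I molecules carry short peptides from inside the cell to its surface, where CD8 T cells and natural killer cells read them. The proteasome cuts proteins into peptides, the TAP transporter moves them into the endoplasmic reticulum, tapasin helps to load them, and a heavy chain pairs with the light chain beta-2-microglobulin to hold them. In the brain the genes are expressed at low levels at rest, most strongly in endothelial cells and microglia, are induced by interferons, and have also been studied in neurons for a part in shaping synapses.

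Class I promoters are known to share a small block of regulatory elements. The windows of 4 members are shown, those with the most kinds of the elements below, so they are not typical of the set. Whether these elements bear on the group differences was not tested. The windows are RefSeq sequences on GRCm38.p6, from 250 bases before to 50 bases after the annotated start of transcription, so each also holds the first bases of exon 1. They are written 5′ to 3′ on the strand of the gene. Capitals mark matches, on either strand, to 4 kinds of element: GGGATTCCC, a core of the NF-kB site; GAAANNGAA or GAANNGAAA, forms of the site bound by interferon regulatory factors; TGACG, the core of the X2 box in the class I enhanceosome that NLRC5 acts through; and ATTGG, whose reverse complement CCAAT is the Y box core. The 2 GAA motifs can overlap each other, while the rest were searched apart. The H2-K1 window lies at chr17:34000298-34000597 on the minus strand, the H2-D1 window at chr17:35262844-35263143 on the plus strand, the H2-Q4 window at chr17:35379367-35379666 on the plus strand, and the B2m window at chr2:122147437-122147736 on the plus strand.
H2-K1: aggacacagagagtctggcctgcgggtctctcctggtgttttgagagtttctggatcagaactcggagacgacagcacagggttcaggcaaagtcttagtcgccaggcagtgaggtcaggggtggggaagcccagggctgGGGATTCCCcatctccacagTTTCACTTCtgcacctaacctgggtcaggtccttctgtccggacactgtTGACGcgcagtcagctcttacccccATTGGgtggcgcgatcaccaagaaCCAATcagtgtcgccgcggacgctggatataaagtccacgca
H2-D1: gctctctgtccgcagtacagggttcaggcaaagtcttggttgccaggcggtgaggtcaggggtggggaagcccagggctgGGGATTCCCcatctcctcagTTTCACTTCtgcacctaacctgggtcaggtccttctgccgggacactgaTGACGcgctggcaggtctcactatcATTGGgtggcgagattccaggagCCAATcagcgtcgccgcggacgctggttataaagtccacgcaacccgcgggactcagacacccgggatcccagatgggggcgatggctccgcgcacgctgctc
H2-Q4: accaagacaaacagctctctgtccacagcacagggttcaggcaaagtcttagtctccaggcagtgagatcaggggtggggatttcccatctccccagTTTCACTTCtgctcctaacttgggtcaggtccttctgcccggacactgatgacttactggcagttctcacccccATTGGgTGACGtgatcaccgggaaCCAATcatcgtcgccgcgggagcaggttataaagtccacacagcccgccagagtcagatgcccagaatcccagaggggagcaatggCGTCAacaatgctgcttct
B2m: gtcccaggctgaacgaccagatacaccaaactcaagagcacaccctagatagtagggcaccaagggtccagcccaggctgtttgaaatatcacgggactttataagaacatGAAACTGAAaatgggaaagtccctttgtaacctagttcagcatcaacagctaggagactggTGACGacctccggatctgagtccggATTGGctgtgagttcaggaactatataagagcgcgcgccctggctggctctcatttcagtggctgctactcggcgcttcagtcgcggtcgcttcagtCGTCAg
H2-K1 and H2-D1 carried the elements in the same order. In H2-D1 the NF-kB core began 170 bases before the start, the interferon regulatory element 150, TGACG 101, and ATTGG or its complement 76 and 53 bases before it. In H2-K1 the same elements began 110, 90, 41 and 16 bases before the start of the window shown, with a CCAAT 9 bases after it. Counted from another RefSeq start of H2-K1 they began 124, 104, 55 and 30 bases before it, with the CCAAT 6 bases before it. H2-Q4 had no exact match to GGGATTCCC, and held the interferon regulatory element 153 bases before the start with ATTGG at 79, TGACG at 73 and CCAAT at 55. B2m carried the other form, GAAANNGAA, 139 bases before its start, then TGACG at 78 and ATTGG at 53. In H2-Q4 TGACG thus came after ATTGG, while in H2-K1, H2-D1 and B2m it came before. The H2-Q4 match does not hold the X2 place of the others.

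Matches to short motifs are common, so each is set against all 32851 promoter windows of the same length of 300 bases. GGGATTCCC was found in 0.353 percent of them, GAAANNGAA in 8.56 percent, GAANNGAAA in 7.52 percent, TGACG in 20.8 percent and ATTGG in 37.4 percent. All 4 kinds of element together were found in 4 windows, 1 of H2-D1, 2 overlapping windows of H2-K1 and 1 of H2-Q7, another class I heavy chain. Either GAA motif with TGACG and ATTGG, in any order, was found in 329 windows (1.00 percent), among them those of H2-K1, H2-D1, H2-Q4 and B2m. H2-T23 had GAAANNGAA 123 and CCAAT 52 bases before its start. Tap1 had TGACG at 86 and CCAAT at 222, Tapbp had ATTGG at 248 and 165, and Psmb8 had none of the motifs in its window. RefSeq windows were matched for 8 of the 10 members, without Nlrc5 and Tap2. Tap1 and the immunoproteasome gene Psmb9 start 226 bases apart on opposite strands, and their windows share 275 bases.

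**Figure D1:**
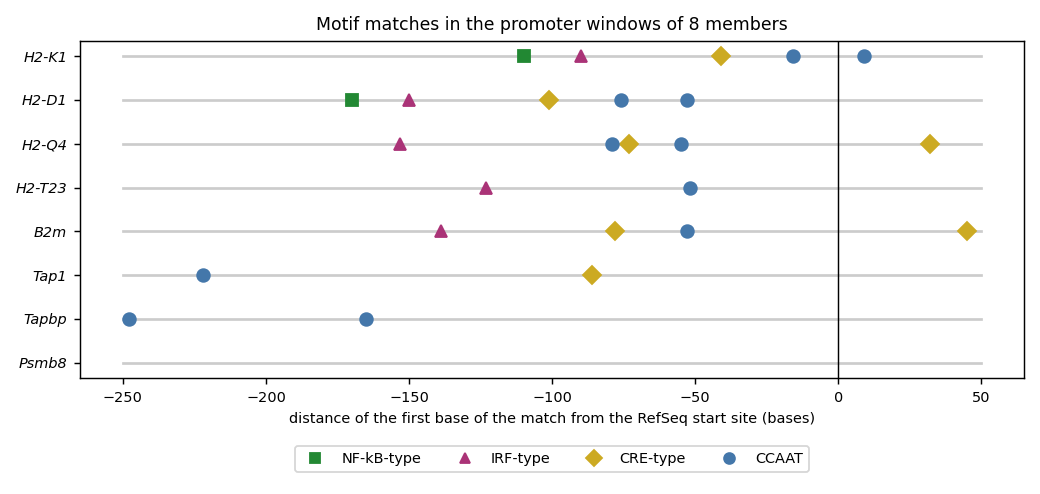
Motif matches in the promoter windows of 8 members, by distance in bases of the first base of the match from the RefSeq start site (x axis) and gene (y axis), with a symbol for each kind of element. H2-K1 and H2-D1 carry all 4 kinds in the same order, H2-Q4 and B2m lack an exact NF-kB core, and Psmb8 has no match.

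Each of the 10 members had a lower mean in the cocaine than in the saline group. Log2 differences (cocaine minus saline, on the log2(normalised read count + 1) scale, where the difference of a low gene comes out too small) ran from -1.34 for Nlrc5 to -0.16 for Tapbp, with a median of -0.39. Over all 13016 tested genes the median was 0.01, and 46.3 percent of them were lower in cocaine. By limma 0 percent of tested genes passed the adjusted threshold, and none of the 7 tested members did. In none of the 10 members did the groups fail to overlap, where 0.0154 percent of tested genes were lower and 0.0615 percent higher without overlap. Because the members were chosen for this difference, nothing is read from how many were lower. Leaving out any 1 of the 12 libraries gave medians between -0.49 and -0.32, with all 10 members lower each time.

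H2-K1 encodes a classical heavy chain that presents peptides to CD8 T cells (ENSMUSG00000061232, minus strand of chromosome 17, 33996017 to 34000333). Its lowest, median and highest normalised read counts were 371, 526 and 804 in saline and 364, 384 and 479 in cocaine libraries. Saline 1 was the highest and saline 2 the lowest of the saline libraries. The groups overlapped, with 3 saline libraries above every cocaine library and 6 of 6 cocaine libraries below the saline median. The means were 564 ± 164 and 405 ± 45.8 (SD, n = 6 each), 1.39-fold lower in cocaine, with a log2 difference of -0.43 ± 0.16 (SE).

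H2-D1, the other classical heavy chain of this strain (ENSMUSG00000073411, plus strand of chromosome 17, 35262730 to 35267499), stood at 695, 872 and 1252 in saline and 685, 755 and 774 in cocaine libraries (lowest, median, highest). Here 4 saline libraries lay above the whole cocaine group, saline 1 again the highest and saline 2 again the lowest of its group. The cocaine libraries were close together, with a coefficient of variation of 4.76 percent against 22.5 percent in saline. The means were 903 ± 203 and 743 ± 35.4 (SD, n = 6 each), 1.22-fold lower, and the log2 difference was -0.25 ± 0.12 (SE). Without saline 1 it was -0.15.

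H2-T23 encodes Qa-1, a nonclassical heavy chain that shows leader peptides of other class I chains to natural killer cell receptors (ENSMUSG00000067212, minus strand of chromosome 17, 36029773 to 36032855). It ranged over 398, 477 and 519 in saline and 350, 386 and 495 in cocaine libraries, in the same order. In this gene 4 cocaine libraries lay below every saline library, and the extremes of saline were held by saline 6 (high) and saline 4 (low). The means were 467 ± 49.4 and 403 ± 56.9 (SD, n = 6 each), 1.16-fold lower, with a log2 difference of -0.22 ± 0.11 (SE). H2-Q4, a further nonclassical heavy chain (ENSMUSG00000035929, plus strand of chromosome 17, 35379617 to 35385290), stood at 58.4, 106 and 181 in saline and 51.4, 62.8 and 102 in cocaine libraries. Saline 1 and saline 2 again held the highest and lowest saline values, and 6 of 6 cocaine libraries lay below the saline median. The means were 108 ± 42.7 and 69.6 ± 19.0 (SD, n = 6 each), 1.55-fold lower, with a log2 difference of -0.58 ± 0.25 (SE).

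Class I heavy chains resemble each other, and reads that match several of them can be split or lost in counting, which the labels do not describe. Of the distinct 50-base stretches in their transcripts, 21.8 percent in H2-Q4, 13.6 percent in H2-T23, 12.8 percent in H2-D1 and 9.63 percent in H2-K1 also occurred in a transcript of another gene, against 0 percent in B2m and Nlrc5. At 100 bases the order was another, with 3.59 percent in H2-D1, 3.15 percent in H2-T23, 2.16 percent in H2-Q4 and 0.957 percent in H2-K1. Values of the heavy chains are uncertain to that extent.

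B2m encodes beta-2-microglobulin, the light chain that nearly all class I molecules need to reach the surface (ENSMUSG00000060802, plus strand of chromosome 2, 122147686 to 122153083). Its normalised read counts were 911, 1219 and 1874 in saline and 829, 1087 and 1454 in cocaine libraries (lowest, median, highest). Saline 5 was the highest and saline 2 the lowest of the saline libraries, cocaine 3 was the highest of the cocaine libraries, and 5 of 6 cocaine libraries lay below the saline median. The means were 1300 ± 354 and 1080 ± 229 (SD, n = 6 each), 1.20-fold lower, with a log2 difference of -0.25 ± 0.18 (SE). Without saline 5 the difference was -0.14.

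Tap1 and Tap2 encode the subunits of the transporter that brings peptides into the endoplasmic reticulum. Tap1 (ENSMUSG00000037321, plus strand of chromosome 17, 34187553 to 34197225) stood at 47.2, 67.8 and 83.0 in saline and 30.2, 36.7 and 56.6 in cocaine libraries. In Tap1 5 of 6 cocaine libraries lay below every saline library, and only cocaine 1 reached into the saline range. The means were 65.1 ± 12.97 and 39.3 ± 10.2 (SD, n = 6 each), 1.65-fold lower, with a log2 difference of -0.72 ± 0.20 (SE). Of its 5476 exon bases 212 are shared with Psmb9 on the opposite strand, a gene with a mean of 28.1 normalised reads, and the strand setting of the counting is not given in the sources used here.

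Tap2 (ENSMUSG00000024339, plus strand of chromosome 17, 34203527 to 34216321) stood at 63.8, 87.2 and 134 in saline and 53.3, 69.0 and 93.9 in cocaine libraries. Its groups overlapped widely, 4 of 6 cocaine libraries being below the saline median and saline 5 being the highest of all. The means were 93.2 ± 28.7 and 71.9 ± 17.2 (SD, n = 6 each), 1.30-fold lower, with a log2 difference of -0.35 ± 0.21 (SE). Tapbp encodes tapasin, which holds empty class I molecules at the transporter (ENSMUSG00000024308, plus strand of chromosome 17, 33915899 to 33929288). It stood at 520, 568 and 614 in saline and 469, 505 and 544 in cocaine libraries. Only saline 2 lay within the cocaine range and only cocaine 3 within the saline range. The means were 568 ± 30.3 and 507 ± 24.6 (SD, n = 6 each), 1.12-fold lower and the smallest difference of the set, with a log2 difference of -0.16 ± 0.07 (SE). Tapbp shares 149 of its 3628 annotated exon bases with Zbtb22 on the same strand, which had a mean of 720 normalised reads.

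Nlrc5 encodes the NLR-family transactivator that switches on class I genes (ENSMUSG00000074151, plus strand of chromosome 8, 94434356 to 94527272). It had the lowest level of the set, with a mean of 16.3 recovered reads per library and as few as 3, so its values carry much counting error. Its normalised read counts were 8.09, 26.9 and 30.5 in saline and 3.02, 9.11 and 14.7 in cocaine libraries. Of the saline libraries 5 lay above every cocaine library, and saline 2 lay inside the cocaine range. The means were 23.6 ± 8.76 and 8.83 ± 4.15 (SD, n = 6 each), 2.67-fold lower, with a log2 difference of -1.34 ± 0.38 (SE). Without cocaine 2 it was -1.10 and without saline 2 it was -1.60.

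Psmb8 encodes a catalytic subunit of the immunoproteasome, the form that interferon induces (ENSMUSG00000024338, plus strand of chromosome 17, 34197721 to 34201454). It stood at 24.3, 47.5 and 75.5 in saline and 24.1, 35.7 and 42.7 in cocaine libraries. Saline 1 was again the highest and saline 2 the lowest of the saline group, and 4 saline libraries lay above every cocaine library. The means were 49.7 ± 18.2 and 34.6 ± 8.27 (SD, n = 6 each), 1.43-fold lower, with a log2 difference of -0.46 ± 0.26 (SE).

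**Figure D2:**
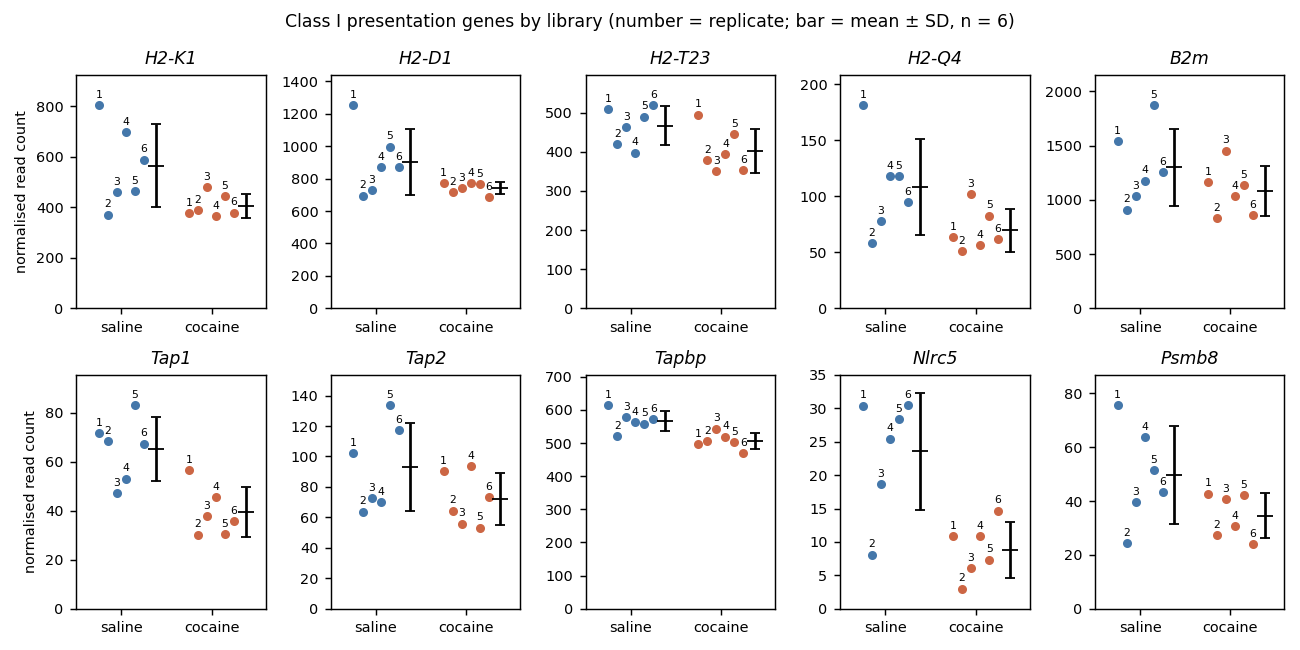
Normalised read count (y axis, each panel from 0) of each member in the 6 saline and 6 cocaine libraries, numbered by replicate, with bars for the mean ± SD. Tap1 and Tapbp have 5 cocaine libraries below all saline libraries, while B2m and Tap2 overlap widely.

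The members tended to be high and low in the same libraries. Saline 1 was the highest of the 6 saline libraries in 5 of the 10 members (13.3 percent of all tested genes had their highest saline value there), saline 5 was the highest saline library in 3, and saline 2 was the lowest saline library in 8 (10.2 percent of all tested genes). In the same 5 members saline 1 was also the highest of all 12 libraries (7.67 percent of all tested genes), from which nothing is read, since members chosen for being lower in cocaine favour a saline library. The mean deviation of the 10 members from their 12-library mean, on the log2 scale, was 0.63 in saline 1, -0.27 in saline 2, 0.00 in saline 3, 0.26 in saline 4, 0.46 in saline 5 and 0.34 in saline 6. In cocaine 1 to 6 it was -0.04, -0.52, -0.16, -0.18, -0.22 and -0.30. Saline 2 thus lay inside the cocaine range, and the other 5 saline libraries lay above all cocaine libraries, saline 3 (0.00) only just above cocaine 1 (-0.04). Since the members were chosen for being lower in cocaine, nothing is read from this separation. The SD of the log2 values was larger in saline in 7 of the 10 members, where it was larger in saline in 55.4 percent of tested genes.

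Within groups the members also varied together, in part. For each of the 45 pairs, Pearson's r of the log2 residuals from the group means over the 12 libraries was computed as a description: the libraries share their depth and composition, and the pairs share genes. The median r was 0.48, against -0.00 over all pairs of tested genes. Of the 45 pairs 42 were positive, and 42.2 percent exceeded 0.5, against 19.9 percent of all tested pairs. The closest pairs were H2-Q4 with Psmb8 (0.88), H2-K1 with H2-Q4 (0.85) and H2-K1 with Psmb8 (0.82). Heavy chains share sequence, H2-Q4 holding 2.26 percent of the 50-base stretches of H2-K1, and the part of this in r was not tested. Tap1 went most closely with Tap2 (0.73), and H2-K1 with Tap1 gave the lowest value (-0.15). The pooled r hides differences between the groups, each with 6 libraries. For H2-K1 with H2-D1 r was 0.76 in saline and 0.09 in cocaine, and for H2-K1 with Tap2 it was 0.25 and -0.87. H2-K1 with H2-Q4 gave 0.86 in saline and 0.92 in cocaine.

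Other genes followed the same library pattern. The 8 tested genes whose residuals correlated best with the mean residual of the tested members over the 12 libraries were Igtp (r = 0.95), Gm28151 (0.94), Rsph10b (0.92), Chuk (0.92), 1810030O07Rik (0.91), Zfp932 (0.91), Pglyrp1 (0.90) and Ly6a (0.89). In that order their log2 differences (cocaine minus saline) were -0.36, -0.10, -0.29, -0.04, -0.06, -0.11, -0.18 and -0.37. All 8 were thus lower in cocaine, as were 46.3 percent of all tested genes. Their differences ran from -0.37, near the member median of -0.39, to -0.04. Whether the library pattern and the group difference go together was not tested. Igtp, an interferon-induced GTPase, averaged 85.0 ± 30.1 in saline and 63.3 ± 9.42 normalised reads in cocaine (SD, n = 6 each), a log2 difference of -0.36 ± 0.22 (SE; limma adjusted p 1.00). Ly6a, known as Sca-1 and present on brain endothelial cells, had 417 ± 119 and 317 ± 56.5, a log2 difference of -0.37 ± 0.18 (SE; limma adjusted p 1.00).

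**Figure D3:**
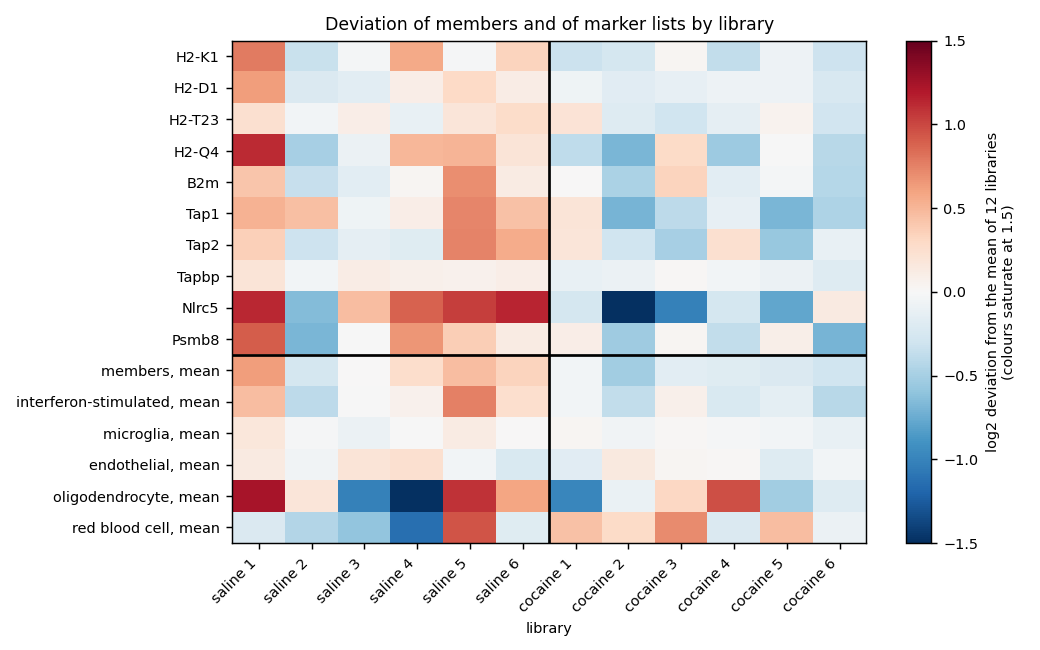
Log2 deviation from the 12-library mean (colour) of each member and of the interferon-stimulated and marker lists (rows) in each library (columns). Members are mostly high in saline 1 and saline 5 and low in cocaine 2, and the oligodendrocyte list is highest in saline 1.

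Levels per deposited gene length spanned B2m at 78.9 ± 21.7 FPKM (SD over the 12 libraries) to Nlrc5 at 0.109 ± 0.0692 FPKM. They can be compared between genes only as far as those lengths hold and reads of shared sequence were counted. Below B2m came H2-D1 at 18.2 ± 3.86, H2-K1 at 10.6 ± 3.16, Tapbp at 9.27 ± 0.798, H2-T23 at 8.56 ± 1.33, H2-Q4 at 1.95 ± 0.844, Tap2 at 1.25 ± 0.405, Psmb8 at 0.877 ± 0.330 and Tap1 at 0.544 ± 0.189 FPKM. Light chain transcripts therefore stood above those of the heavy chains in 12 of 12 libraries. Neighbours in this order were compared by an exact two-sided sign-flip permutation test of the log2 ratio over the 12 libraries, whose smallest p is 0.000488, with p-values adjusted over the 9 pairs. B2m over H2-D1, H2-D1 over H2-K1, H2-T23 over H2-Q4 and Tap1 over Nlrc5 each had an exact adjusted p of 0.0011, with the order held in 12 of 12 libraries. H2-K1 and Tapbp did not differ beyond their spread (exact adjusted p 0.134, H2-K1 higher in 8 of 12). Tapbp over H2-T23 passed (exact adjusted p 0.0324, 8 of 12), but no longer when any of 7 single libraries was left out (exact adjusted p 0.0516 to 0.0648). H2-Q4 over Tap2 had an exact adjusted p of 0.00264 (11 of 12 libraries), Tap2 over Psmb8 of 0.0126 (8 of 12) and Psmb8 over Tap1 of 0.0044 (11 of 12). The deposited lengths of H2-K1, Tapbp and Psmb8 (2608, 3296 and 2736 bases) are shorter than their GENCODE exon bases (2938, 3628 and 3381). No p-value here covers this, and the order of Tapbp and H2-T23 turns on the length used.

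**Figure D4:**
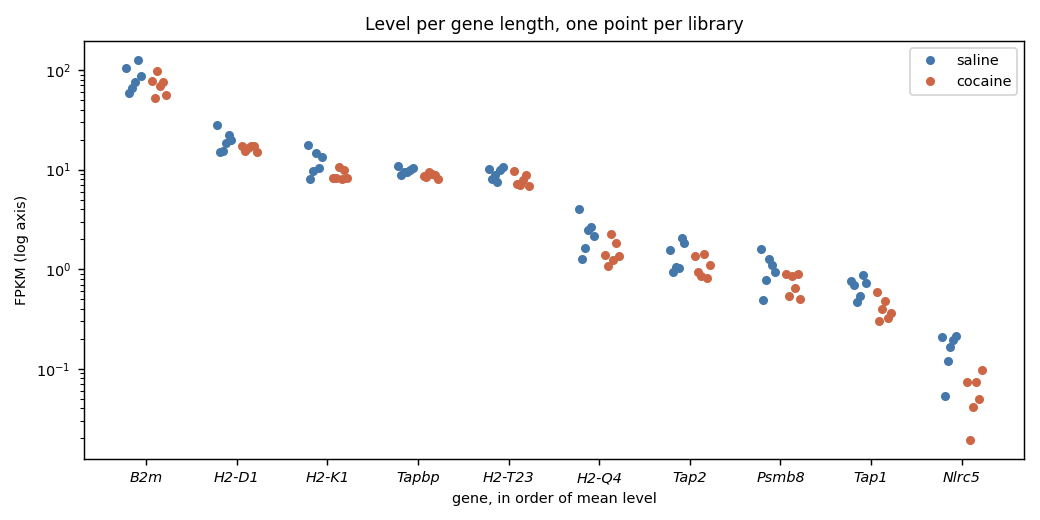
FPKM (log axis) of the 10 members in the saline and cocaine libraries, 1 point per library, in order of mean level. B2m lies highest and Nlrc5 lowest, and H2-K1, Tapbp and H2-T23 lie close together near 10 FPKM.

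The rest of the pathway, here with class II presentation genes and the constitutive proteasome subunits, was taken from textbook lists of 81 genes. Of these 75 were in the table and 47 were tested. None was called by limma, edgeR or DESeq2. At an unadjusted p under 0.05 limma and edgeR found 0 and DESeq2 found 1, Cd8a, which was lower in cocaine. Of the tested genes 26 were lower and 21 higher in cocaine, with a median log2 difference of -0.01, against 0.01 over all tested genes. The members were chosen for being lower in cocaine, so nothing is read from a gap between them and these genes. Cd8a, a T cell co-receptor for class I, was itself at 0 in 4 libraries and no higher than 6.46 normalised reads.

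Among the other class I heavy chains 5 of 15 genes in the table were tested, 4 of them lower, with a median log2 difference of -0.07. H2-T24 averaged 87.2 ± 51.5 in saline and 53.9 ± 29.1 normalised reads in cocaine (SD, n = 6 each), a log2 difference of -0.60 ± 0.40 (SE; limma p 0.153, adjusted 1.00). H2-T22 differed by 0.05 ± 0.07 (log2, SE). H2-Q6 and H2-Q7, nonclassical heavy chains below the level for testing, were chosen for mention after their values were seen: H2-Q6 stood at 8.99, 35.8 and 64.7 in saline and 9.19, 13.97 and 48.9 in cocaine libraries (lowest, median, highest). H2-Q7 stood at 4.05, 26.6 and 40.3 in saline and 2.10, 12.4 and 26.5 in cocaine libraries.

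Of the other partners of peptide loading in the endoplasmic reticulum 5 of 10 tested were lower and 5 higher in cocaine, with a median of 0.00. The translocon subunit Sec61a1 differed by -0.06 ± 0.10 and the disulfide isomerase Pdia3 by 0.05 ± 0.09 (log2, SE). Of the other immunoproteasome genes 1 of 4 tested was lower (median 0.06), with Psmb10 at 0.08 ± 0.15 and the activator Psme1 at -0.07 ± 0.15 (log2, SE). Psmb9, which faces Tap1 and was too low to test, stood at 14.3, 32.7 and 51.0 in saline and 19.1, 23.9 and 29.5 in cocaine libraries, and was named after its values were seen. The constitutive subunits that Psmb8 and its partners replace differed by 0.04 ± 0.08 (Psmb7) and 0.07 ± 0.16 (Psmb6; log2, SE).

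Regulators of class I genes, among them interferon receptors, kinases, IRF factors and NF-kB subunits, had 13 of 22 tested genes lower and a median of -0.02. The interferon gamma receptor chain Ifngr1 differed by -0.14 ± 0.11 and the NF-kB subunit Nfkb1 by -0.10 ± 0.09 (log2, SE). Irf1, a factor that binds the interferon element, differed by -0.12 ± 0.15 (log2, SE) and was named after its values were seen. None of the 7 receptors of class I in the table reached the level for testing. Of class II genes 3 were tested, 2 lower, with the invariant chain Cd74 at -0.30 ± 0.24 and H2-DMa at 0.03 (log2).

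Of the 21 interferon-stimulated genes in the list 11 were tested, and none passed the adjusted threshold in limma, edgeR or DESeq2. The 11 were lower in cocaine, as were 46.3 percent of all tested genes, with a median log2 difference of -0.26. Of these 11, 3 had an unadjusted limma p under 0.05 (0.469 percent of all tested genes were lower at that level). At an unadjusted p under 0.05 in either direction edgeR gave 12 and DESeq2 14 of the 21, where over all genes edgeR gave 253 of 16057 and DESeq2 428 of 28827. The list was chosen with earlier results of these data known, so these counts are a description and nothing is read from them. Gbp3, a guanylate-binding GTPase, differed by -0.82 ± 0.26, Isg15, a ubiquitin-like protein, by -0.81 ± 0.35, and Irgm1, a GTPase of the same family as Igtp and named after its values were seen, by -0.24 ± 0.10 (log2, SE; limma adjusted p 1.00 each). Without saline 1, 9 of the 11 were lower and 1 was lower at an unadjusted p under 0.05 (median -0.23). Without saline 5 these counts were 10 and 1 (median -0.23), and without saline 2 they were 11 and 7 (median -0.43).

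**Figure D5:**
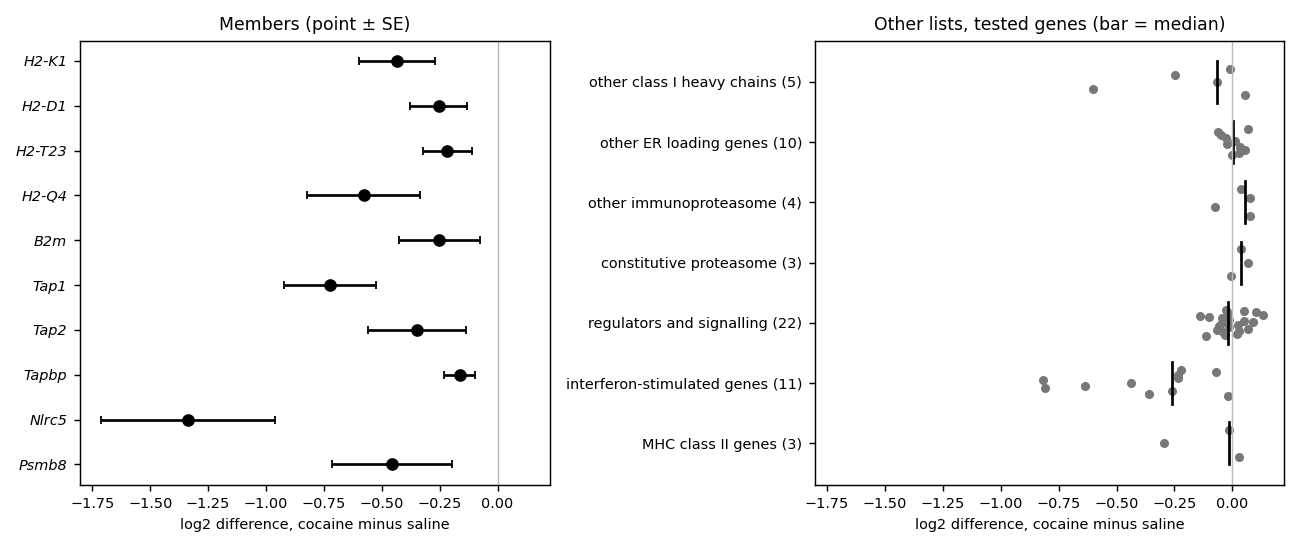
Log2 difference (cocaine minus saline) of each member with its standard error (left) and of the tested genes of the other lists with their medians (right). The members run from -1.34 to -0.16. The medians of the other pathway lists lie between -0.07 and 0.06 and that of the interferon-stimulated genes at -0.26. The members were chosen for being lower and include 3 genes below the level for testing. Nothing is read from the gap between the panels.

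Markers of cell types that express class I genes were summed in each library. Microglia markers (11 of 11 tested, 9 lower) summed to 6223 to 7202 in saline and 5891 to 6573 normalised reads in cocaine libraries, with saline 1 highest. Csf1r, the most abundant, differed by -0.08 ± 0.07, and Cx3cr1, the one with the smallest p, by -0.22 ± 0.10 (log2, SE; limma p 0.0504, adjusted 1.00). Endothelial markers (9 of 10 tested, 7 lower) summed to 4199 to 5161 in saline and 4302 to 4937 in cocaine libraries. Flt1 was the most abundant of them, and Tek, with the smallest p, differed by -0.17 ± 0.17 (log2, SE). The part of microglia and endothelial cells in the lower class I values was not tested.

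Other lists marked single libraries. Oligodendrocyte markers, led by Mbp (Aspa, with the smallest p, differed by -0.26 ± 0.41, log2, SE), summed to 32935 to 235518 in saline and 49329 to 193409 in cocaine libraries, with saline 1 highest; 10 of 10 were lower in cocaine, but 1 of 10 without saline 1 and 3 of 10 without saline 5. Choroid plexus markers summed to 11644 in saline 5, most of it the thyroid hormone carrier Ttr, and to at most 148 in any cocaine library. Red blood cell markers summed to 787 to 2717 in saline and 1317 to 2531 in cocaine libraries, with 4 of 4 tested higher in cocaine and Hbb-bs at 0.47 ± 0.21 (log2, SE; limma p 0.0454, adjusted 1.00).

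Markers of immune cells from blood were low. Lymphocyte markers summed to 265 to 554 in saline and 343 to 592 in cocaine libraries, most of it Ighm, and 11 of the 14 markers in the table were at 0 in at least 1 library. Neutrophil and monocyte markers, S100a9 the most abundant, summed to 1.80 to 64.8 in saline and 2.97 to 16.5 in cocaine libraries, with all 6 at 0 in at least 1 library. Border macrophage markers, led by Mrc1, summed to 53.6 to 138 and 46.2 to 120. Mural and fibroblast markers (3013 to 3832 and 2985 to 3861, most abundant Rgs5), astrocyte markers (38092 to 49193 and 34938 to 53302, Slc1a2) and interneuron markers (15475 to 19657 and 15483 to 17580, Sst) overlapped between groups. Their genes with the smallest p, Col1a2, Aldh1l1 and Slc32a1, differed by 0.11 ± 0.14, 0.10 ± 0.12 and -0.10 ± 0.08 (log2, SE). Of the excitatory neuron markers Camk2a was the most abundant, and Neurod6 differed by 0.09 ± 0.11. The part of any of these cells in the class I differences was not tested. Without saline 5 the median of the 10 members was -0.33, and without saline 1 it was -0.32. Within the labels' time tag, day 0 or day 5, which does not match the ages given and holds 3 libraries of each group per value, all 10 members were lower for both values, with medians of -0.36 and -0.40. Since the members were chosen for being lower in these same libraries, nothing is read from that.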

How the data were processed

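RNA sequencing of prefrontal cortex gave 1 deposited table of 12 libraries, 6 per group. Its per-library values are a signal that the authors deposited after dividing counts by a size factor per library, as the values themselves show: 100 percent were whole multiples of 1 read within a tolerance of 0.01 read, though the table is named for FPKM. They are called normalised read counts. The log2 fold change, p-value and adjusted p-value columns that the authors deposited were not used. The submitters' processing notes name HISAT2 2.0.5 and the build hg38, which does not match mouse gene IDs. The read counter is not given in the sources used here, nor are its strand setting and gene models. Of 28842 gene IDs 28805 were found in GENCODE M21, and coordinates are GRCm38.

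FPKM was computed from the value, the deposited gene length and the column sum. limma 3.58.1 in R 4.3.3 (empirical Bayes with a variance trend, two-sided) was run on log2(value + 1) over 13016 genes averaging 1 FPKM or more, with no covariates. Adjusted p-values are Benjamini-Hochberg over all tested genes, with a threshold of 0.05. In DESeq2 the adjustment covers only genes that pass its default filter on mean count. Standard errors of Tap1, Nlrc5 and Psmb8 come from the same fit with a minimum of 0.1 FPKM. edgeR 4.0.16 and DESeq2 1.42.0 were run on the recovered counts, which the authors had deposited only in normalised form. The fits were tested on simulated data. No pair of libraries held identical values. The design had been written for FPKM and its log-scale test was kept.

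The members and gene lists were chosen with earlier results of these data known. Named genes are the members, the 2 genes with the smallest p of each pathway or interferon list, the most abundant and smallest-p marker of each cell type, and the 8 genes most alike in pattern; any other gene was named after its values were seen. Alternatives covered the pseudocount, the filter, scaling, count tests, a replicate block, the time tag and leaving out each library. Depth of 16.7 to 19.9 M reads limits a gene at 0 to about 3 reads per library, counting error only.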

Additional observations from a re-analysis of the deposited data

Results flagged for a closer look

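A sample was picked out where it stood far from the other 5 of its group (gap to the nearest over the group's range above 0.625). Chance picks about 1 in 20 groups, and 60 were checked, of which 5 met this. None was a value of a class I member. In saline 5 the summed choroid plexus markers were 11644 normalised reads, with the next library at 106. In the same library the red blood cell markers summed to 2717 (next 1439) and the interneuron markers to 19657 (next 16475). In cocaine 3 the interferon-stimulated genes summed to 1445 (next 1231), and this library also held the highest cocaine value of B2m, H2-K1, H2-Q4 and Tapbp. In cocaine 4 the other loading and endoplasmic reticulum genes summed to 20193 (next 21928).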

How the results depend on the processing

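All 10 members were lower in cocaine under each of the 23 alternatives planned and in both values of the time tag. Since they were chosen for being lower in these same libraries, these counts are no sign of stability. The median log2 difference of the members was -0.49 (without saline 2) to -0.32 (without saline 1) when 1 library was left out. Under the 11 other planned settings it was -0.44 to -0.38. The minimum FPKM of the log-scale test does not enter a member's difference, so the median had to stay at -0.39 when only that was changed. limma called 0 genes under every setting of the log-scale test and edgeR called 0, whereas DESeq2 called 3, none a member; the cause was not tested. Called pathway genes numbered 0 under each of the settings. Neighbouring levels, by the deposited gene lengths, differed in 8 of 9 pairs, and in 7 to 8 when 1 library was left out. With the replicate number as a block, 0 genes were called; in this balanced design neither the block nor the time tag as a covariate can move a group difference, so the member median of -0.39 under them is no sign of stability. The numbers did not pair the libraries: the correlation of same-numbered libraries' deviations ran from -0.40 to 0.43, and 2 of the 6 numbers matched their own best. With the labels' time tag as a covariate 0 genes were called. Nlrc5 was -1.09 with a pseudocount of 4. Low reads limit Nlrc5, and shared sequence limits the heavy chains.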
